A study of Mus musculus with 4 samples.

Results

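The 37 genes described here decide between survival and death of a cell: the Bcl2 family, the caspases with their activators and inhibitors, and the kinases and pore-forming proteins of necroptosis and pyroptosis. They were chosen by gene symbol and matched by identifier to the deposited tables, where all 37 were found among 50600 genes. By known role, 12 of them were counted as pro-survival and 25 as pro-death.

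The libraries came from primary T cells of C57BL/6NJ mice, sequenced as 1 group of 4 biological replicates with no second condition, and the labels name no transgene, deletion or added agent. The file headers name the alignments Th0, activated, sorted and 72 h, Th0 being the usual name for activated CD4 T cells kept without polarising cytokines. The labels call the assay total RNA-seq, while the linked library protocol is named for polyA+ RNA. Sex was not collected, age is unknown, and all 4 libraries carry 1 donor entry. Nothing says that they came from separate animals or cultures. Each SD given here therefore measures only the spread between these libraries, and each p-value applies to these libraries alone.

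Between 34978213 and 118937382 read pairs per library were assigned to genes. No pair of libraries agreed within sampling noise, since chi-square per degree of freedom was 29.0 or more for every pair. All 7 T cell markers, Cd3e, Cd3d, Cd3g, Trac, Cd4, Cd5 and Lck, were above 1 TPM in every library, where TPM is the count per base of exon scaled so that every library has the same total. Their summed level was 5986 to 6378 TPM. The 22 markers of other cell types summed to 8.45 to 11.3 TPM, with 7 of them at 0 counts, all 3 neutrophil markers included, and 2, Adgre1 and Epcam, above 1 TPM in every library. In RNA taken from many cells together, fewer cells of a type and less RNA per cell cannot be told apart.

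Mitochondrial apoptosis is decided inside the Bcl2 family. Guardians such as Bcl2, Bcl2l1 (Bcl-xL) and Mcl1 hold back the effectors Bax and Bak1, which otherwise open pores in the outer mitochondrial membrane, and BH3-only proteins such as Bcl2l11 (Bim), Bbc3 (Puma) and Pmaip1 (Noxa) relieve that restraint under stress or when cytokines run out. Cytochrome c released through the pores assembles with Apaf1 and activates caspase-9, the IAP proteins block caspases, and Diablo (Smac) displaces the IAPs. Death receptors instead act through Fadd and caspase-8, which Cflar (c-FLIP) restrains, and when caspase-8 is not active Ripk1 and Ripk3 can pass the signal to Mlkl, the pore protein of necroptosis. In T cells, activation is known to shift the survival balance among guardians, and Bim is known for removing activated cells as a response ends.

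Of the 37 members, 34 were at 1 TPM or more in all 4 libraries, where 49.9% of 21764 protein-coding genes were. The 3 others were the guardian copy Bcl2a1a, the BH3-only gene Hrk and the inflammatory caspase gene Casp12, and they were at or near 0 counts. At 5 TPM or more in all 4 libraries were 32 members, and 42.7% of protein-coding genes. Mean levels of the 34 ran from 2.85 TPM for Bok to 563 TPM for Bax, with a median over all 37 members of 36.3 TPM, beside 31.9 TPM for the protein-coding genes at 1 TPM or more in every library. Above that 31.9 TPM stood 9 of the 12 pro-survival and 13 of the 25 pro-death members.

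**Figure D1:**
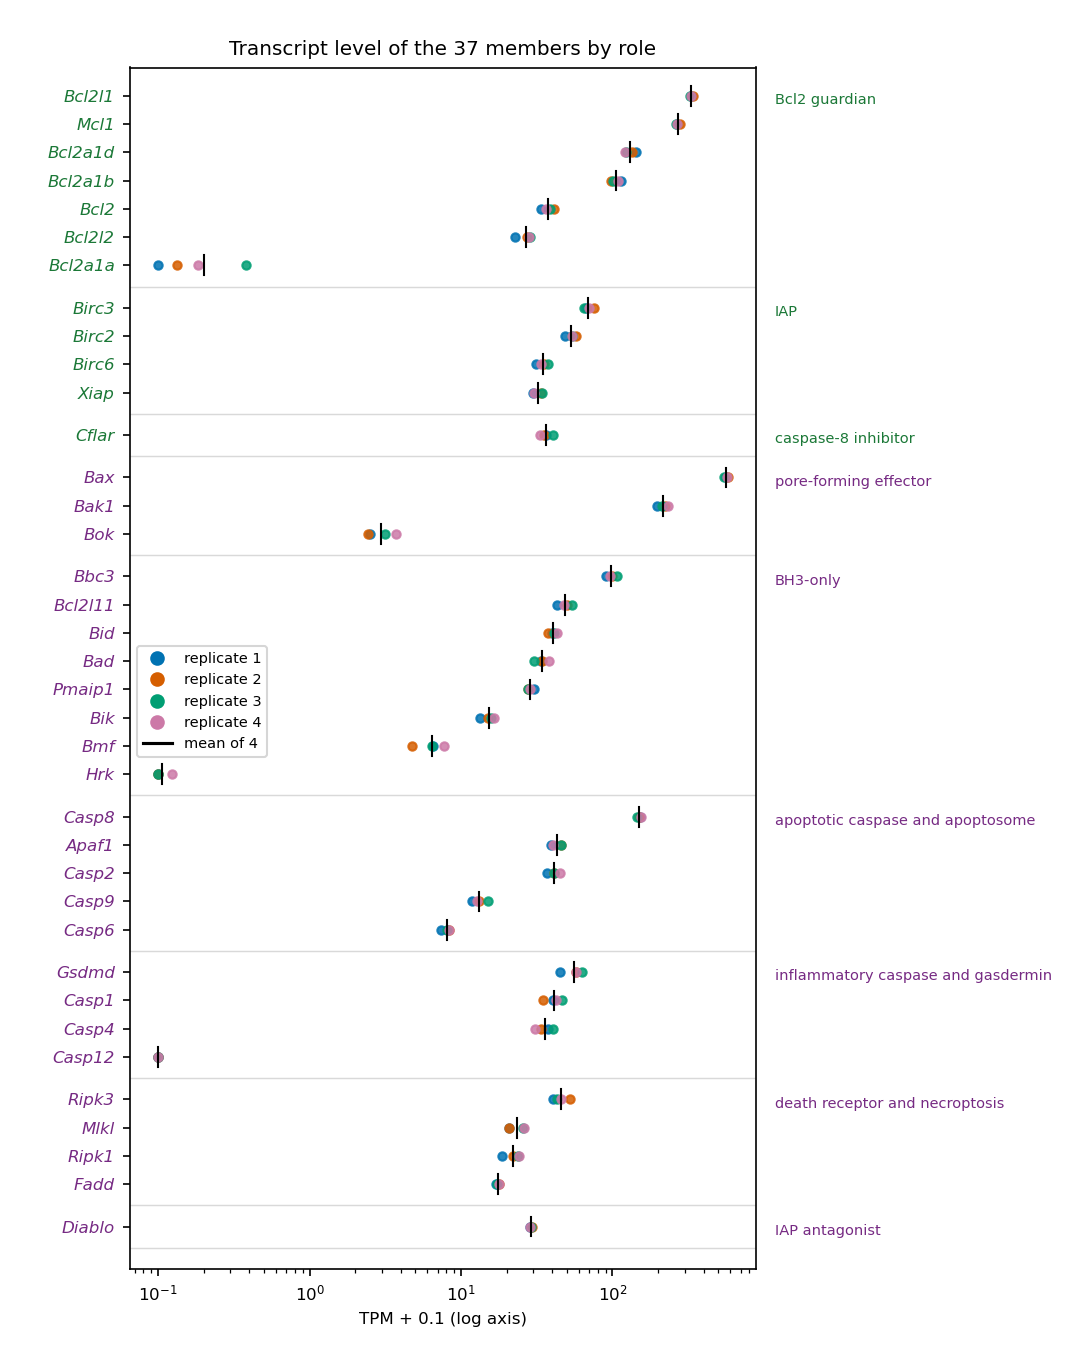
Transcript level of each of the 37 members, as TPM + 0.1 on a log axis, with 1 point per library and a black tick at the mean of 4; green names are pro-survival and purple names pro-death, grouped by role. Bax, Bcl2l1 and Mcl1 lie furthest right, between 264 and 575 TPM, while Bcl2a1a, Hrk and Casp12 lie at or near the left edge.

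In the plot of levels by role, the order at the top was the same in every library. Bax was highest, then Bcl2l1, Mcl1, Bak1, Casp8 and Bcl2a1d, and the ranges of neighbours in that order did not overlap. This order holds for levels per base of exon. In counts scaled to the library total without division by length (CPM), Bcl2l1 led with a mean of 472, ahead of Birc6 at 309, Mcl1 at 286 and Bax at 276. Further down the order in TPM, levels lay close together. Over the whole order, 22 of the 36 pairs of neighbours overlapped in range, among them every pair from Gsdmd, at rank 10, to Xiap, at rank 23.

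Among the guardians, Bcl2l1 and Mcl1 carried most of the transcript. Bcl2l1 (ENSMUSG00000007659.18, chromosome 2, 152780668 to 152831728, minus strand), with this and every later position on mm10 as deposited, was at 327, 339, 326 and 329 TPM in replicates 1 to 4. Mcl1, a short-lived guardian that T cells need throughout life (ENSMUSG00000038612.16, chromosome 3, 95658788 to 95663176, plus strand), was at 266, 278, 264 and 267 TPM in replicates 1 to 4. In TPM both were highest in replicate 2 and moved little between libraries, with the highest library at 1.04 times the lowest for Bcl2l1 and 1.05 times for Mcl1. Together they made up 66.7% ± 0.798 (SD, n = 4) of the summed guardian TPM of 898 ± 16.4, Bcl2l1 36.8% and Mcl1 29.9%. That sum includes the Bcl2a1 copies, whose levels are uncertain for reasons given below, and the SD does not cover that uncertainty.

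Bcl2 itself, the guardian best known from resting lymphocytes, stood well below both. Bcl2 (ENSMUSG00000057329.7, chromosome 1, 106538178 to 106714274, minus strand) was at 33.8, 40.8, 38.6 and 36.4 TPM in replicates 1 to 4, which was 4.17% ± 0.329 of guardian TPM. Inside the libraries, Bcl2 minus Bcl2l1 was -3.14 ± 0.10 (SD, n = 4) on the scale of log2(TPM + 0.1), the scale of every log2 difference between genes given here, and each value after ± below is likewise an SD over 4 libraries. Mcl1 exceeded Bcl2 by 2.84 ± 0.10 log2, a ratio of 7.18. In CPM the differences were smaller, at -2.15 ± 0.10 log2 for Bcl2 minus Bcl2l1 and 1.42 ± 0.10 log2 for Mcl1 minus Bcl2. For Bcl2l2 (Bcl-w), a guardian known chiefly from testis and brain (ENSMUSG00000089682.9, chromosome 14, 54883377 to 54888234, plus strand), the libraries gave 22.5, 27.3, 28.3 and 28.2 TPM in replicates 1 to 4. Replicate 1 was the lowest of the 4 for Bcl2l2, apart from the other libraries. Bcl2l1 exceeded Bcl2l2 by 3.64 ± 0.15 log2.

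Each of these differences between guardians had the same sign in 4 of 4 libraries. So did all 20 pairs of members that were compared, 13 with the first gene higher and 7 with it lower. For each pair the exact two-sided sign-flip permutation test over the 4 libraries gave p = 0.125, also after adjustment over the 20 pairs, which is the smallest p this design allows, so none of the 20 could pass a threshold of 0.05.

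**Figure D2:**
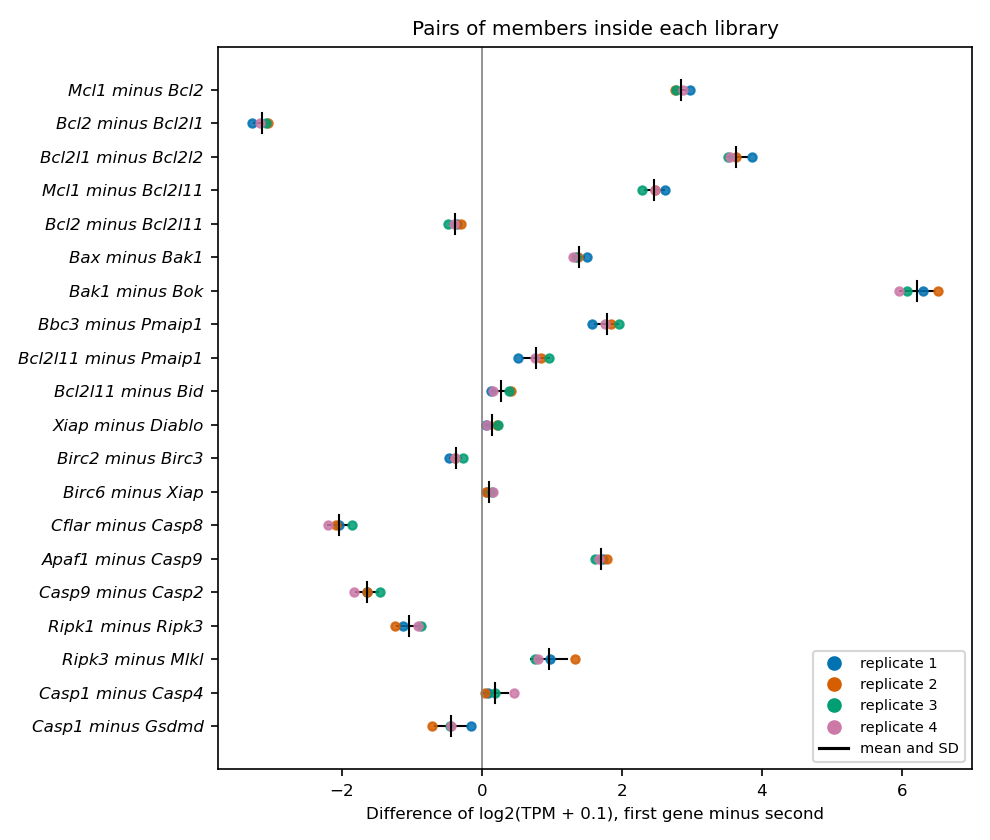
Difference of log2(TPM + 0.1), first gene minus second, inside each library for the 20 pairs of members; points are libraries, black ticks the mean and bars the SD over 4. All points of a pair lie on the same side of 0, far from it for Bak1 minus Bok at 6.21 and close to it for Birc6 minus Xiap at 0.11.

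The Bcl2a1 genes encode A1, a guardian that antigen receptor and inflammatory signals induce, and the mouse carries several near-identical copies on chromosome 9. All 3 copies measured here have a coding sequence of 516 bases. Bcl2a1a and Bcl2a1b differ at 11 of these, Bcl2a1a and Bcl2a1d at 7, and Bcl2a1b and Bcl2a1d at 6. The first 90 coding bases, given 5′ to 3′ from GENCODE M21 transcripts on mm10, are shown because they hold 6 of the positions, in capitals, by which a read can be told to belong to 1 copy and not another.
Bcl2a1a (chr9:88957051-88957140, plus strand): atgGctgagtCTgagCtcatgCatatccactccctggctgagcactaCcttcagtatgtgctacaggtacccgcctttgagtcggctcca
Bcl2a1b (chr9:89199360-89199449, plus strand): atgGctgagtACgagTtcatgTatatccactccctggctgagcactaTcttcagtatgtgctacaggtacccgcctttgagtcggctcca
Bcl2a1d (chr9:88731630-88731719, minus strand): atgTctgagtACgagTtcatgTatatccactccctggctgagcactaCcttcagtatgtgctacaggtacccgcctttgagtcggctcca

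The copies differed widely in counts. Bcl2a1a (ENSMUSG00000102037.1, chromosome 9, 88956900 to 88962419, plus strand) received 0, 1, 3 and 2 read pairs in replicates 1 to 4, at most 0.283 TPM, where 3 counts, the limit that a count of 0 allows, come to 0.101 to 0.324 TPM depending on the library. Bcl2a1b (ENSMUSG00000089929.1, chromosome 9, 89199209 to 89207827, plus strand) received 1041, 2926, 1059 and 2607 read pairs and was at 113, 98.3, 99.98 and 108 TPM in replicates 1 to 4. Bcl2a1d (ENSMUSG00000099974.1, chromosome 9, 88723285 to 88731914, minus strand) received 1393, 4210, 1375 and 3088 read pairs and was at 143, 134, 123 and 121 TPM in replicates 1 to 4. The ranges of Bcl2a1d and Bcl2a1b did not overlap, with Bcl2a1d higher. That order turned round when the same counts were divided only by bases not shared with an overlapping gene. This step changed Bcl2a1b and left Bcl2a1d as it was. Per base, Bcl2a1b and Bcl2a1d stood above Bcl2 in every library, while Bcl2a1a stood below it. In CPM, with no division by length, both were instead below Bcl2, at means of 26.7 for Bcl2a1b and 35.0 for Bcl2a1d, against 107 for Bcl2.

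Read pairs that fit more than 1 place equally were not counted, so the level of each copy rests on the bases where it differs. Shared stretches were searched for in transcripts of other genes, leaving out genes that overlap the member. Gm29094, which overlaps Bcl2a1b, was therefore searched for Bcl2a1a and Bcl2a1d but not for Bcl2a1b, so the shares are not fully alike. Of all stretches of 100 bases in its transcript, 56.5% occurred in no other gene searched for Bcl2a1a, 68.9% for Bcl2a1b and 45.3% for Bcl2a1d. With stretches of 50 bases these shares were 31.0%, 42.4% and 20.5%. How many read pairs from the shared stretches were lost, and from which copy, was not tested, so the levels of Bcl2a1b and Bcl2a1d are uncertain.

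A block of bases upstream of the transcripts was likewise nearly the same in all 3 copies. The block adjoins the transcript of Bcl2a1d. In Bcl2a1a and Bcl2a1b it ends at the aligned base, some way upstream of transcripts that begin at 88956900 and 89199209. The sequences are from the RefSeq promoter table for GRCm38.p6. Bcl2a1a, with 3 counts at most, and Bcl2a1b, with 1041 or more in every library, carry the same 126 bases with 0 substitutions. Whether upstream sequence bears on the counts of the copies was not tested. Capitals mark the single substituted base and 6 bases that Bcl2a1d lacks, and since these 6 stand in a repeat, the gap could be placed elsewhere within it.
Bcl2a1a (chr9:88956730-88956855, plus strand): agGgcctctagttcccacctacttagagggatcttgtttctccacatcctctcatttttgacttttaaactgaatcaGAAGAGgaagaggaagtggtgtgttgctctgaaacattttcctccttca
Bcl2a1b (chr9:89199039-89199164, plus strand): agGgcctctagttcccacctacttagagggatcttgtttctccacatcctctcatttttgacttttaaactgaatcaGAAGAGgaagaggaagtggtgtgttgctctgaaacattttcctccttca
Bcl2a1d (chr9:88731915-88732034, minus strand): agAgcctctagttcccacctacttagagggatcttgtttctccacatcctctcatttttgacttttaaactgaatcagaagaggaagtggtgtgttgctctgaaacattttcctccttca

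The pore-forming effectors were dominated by Bax. Bax (ENSMUSG00000003873.11, chromosome 7, 45461697 to 45466898, minus strand) was the most abundant of all 37 members, at 561, 575, 542 and 574 TPM in replicates 1 to 4. Bak1, which can open the same kind of pore (ENSMUSG00000057789.13, chromosome 17, 27019810 to 27029009, minus strand), was at 198, 221, 213 and 232 TPM in replicates 1 to 4. Bax was lowest in replicate 3 and within a ratio of 1.06 across libraries, and Bak1 was lowest in replicate 1 and highest in replicate 4. Bok, the third relative, was at 2.41, 2.33, 3.06 and 3.62 TPM in replicates 1 to 4, from 50 to 197 read pairs per library. Bax and Bak1 together made up 99.6% ± 0.0733 (SD, n = 4) of effector TPM. Bax exceeded Bak1 by 1.38 ± 0.08 log2, a ratio of 2.61, and Bak1 exceeded Bok by 6.21 ± 0.25 log2.

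BH3-only genes lay lower and were spread over a wide range, with 7 of 8 at 1 TPM or more in every library and a sum of 271 ± 11.5 TPM. Bbc3, a p53 target (ENSMUSG00000002083.13, chromosome 7, 16308393 to 16318205, plus strand), was the highest, at 89.8, 99.8, 108 and 95.8 TPM in replicates 1 to 4, 36.2% ± 1.67 of the BH3-only sum. Bcl2l11 (ENSMUSG00000027381.16, chromosome 2, 128126038 to 128162547, plus strand) came next, at 43.2, 50.001, 53.8 and 48.1 TPM in replicates 1 to 4, 18.0% ± 1.02 of that sum. Both Bbc3 and Bcl2l11 were lowest in replicate 1 and highest in replicate 3. In CPM their order was the reverse, with means of 64.9 for Bbc3 and 122 for Bcl2l11. Bid, which caspase-8 cleaves to link death receptors with mitochondria (ENSMUSG00000004446.12, chromosome 6, 120891930 to 120916853, minus strand), was at 39.5, 37.3, 41.2 and 42.8 TPM in replicates 1 to 4. Pmaip1, which binds Mcl1 and A1, was at 30.2, 27.7, 27.7 and 28.3 TPM in replicates 1 to 4, with replicate 1 the highest and the others alike.

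Bbc3 and Pmaip1, each a p53 target, were both present, Bbc3 higher by 1.78 ± 0.16 log2. Bcl2l11 exceeded Pmaip1 by 0.77 ± 0.19 log2. Its margin over Bid was smaller, 0.28 ± 0.15 log2, or 1.21 as a ratio, although Bcl2l11 was the higher of the pair in 4 of 4 libraries. Of the remaining BH3-only genes, Bad, which growth factor signals silence by phosphorylation, averaged 34.0 ± 3.08 TPM, Bik 15.1 ± 1.30 TPM and Bmf 6.29 ± 1.25 TPM (SD, n = 4 each). Hrk, known chiefly from neurons, had 0 counts in 3 libraries and 4 in replicate 4.

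Set against 2 of its guardians, Bcl2l11 was lower than Mcl1 but higher than Bcl2. Mcl1 exceeded Bcl2l11 by 2.46 ± 0.13 log2, a ratio of 5.52. Bcl2 minus Bcl2l11 was -0.38 ± 0.08 log2, negative in 4 of 4 libraries, so the Bcl2 transcript stood at 0.768 times that of Bcl2l11. In CPM, Mcl1 minus Bcl2l11 was 1.23 ± 0.13 log2 and Bcl2 minus Bcl2l11 was -0.19 ± 0.08 log2.

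Whether pro-survival or pro-death members came out higher depended on whether the typical member or the total was taken. The median of the 12 pro-survival members was 42.5, 49.1, 47.1 and 45.0 TPM in replicates 1 to 4, against 33.7, 33.6, 30.3 and 30.9 TPM for the 25 pro-death members. As log2 medians the difference, pro-survival minus pro-death, was 0.49 ± 0.13 (SD, n = 4), positive in 4 of 4 libraries. No test was made of it, since the members were chosen with earlier results of these data known. Within the Bcl2 family alone the difference of log2 medians, 7 guardians minus 11 effectors and BH3-only members, was 1.62 ± 0.12.

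Summed transcripts gave the opposite sign. The 7 guardians summed to 905, 917, 880.1 and 890.1 TPM, against 1017, 1067, 1041 and 1086 TPM for the 11 effectors and BH3-only members, a log2 difference of -0.23 ± 0.05, negative in 4 of 4 libraries. Bax alone brought 563 TPM to the pro-death side. Against the 3 effectors without BH3-only members, which summed to 782 ± 25.9 TPM, the guardians were higher by 0.20 ± 0.05 log2, and against the 8 BH3-only members by 1.73 ± 0.08 log2. The sum also turned positive, to 0.40, when counts were not divided by gene length, and without the 3 Bcl2a1 copies it was -0.67, so its sign rests on length scaling and on which members are counted. Read pairs lost from sequence that the Bcl2a1 copies share are also missing from the guardian sum. Their effect on the sign was not tested.

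**Figure D3:**
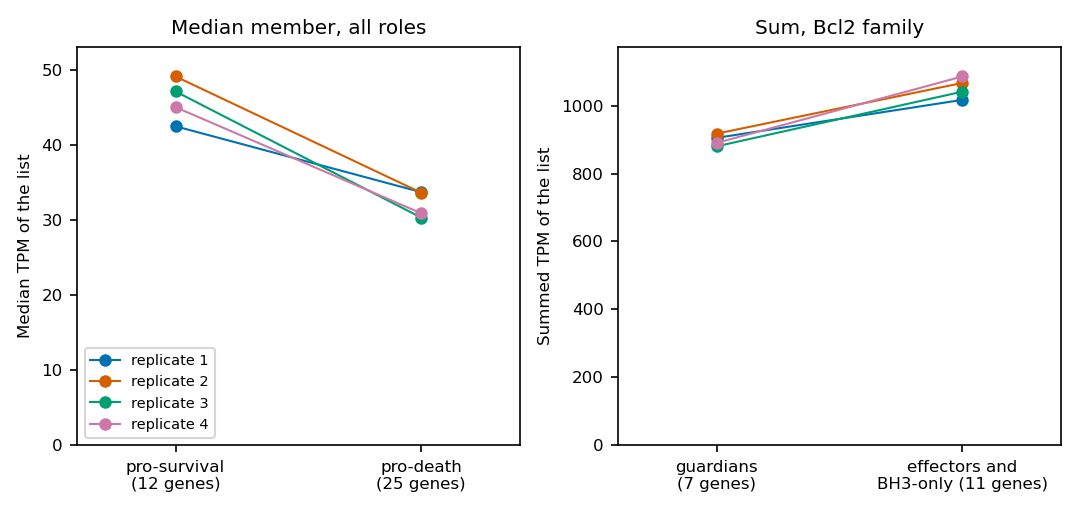
Median TPM of the 12 pro-survival and 25 pro-death members (left) and summed TPM of the 7 guardians and of the 11 effectors and BH3-only members (right), both axes linear from 0, with 1 line per library. In all 4 libraries the line falls to the right in the left panel, 45.9 against 32.1 TPM on average, and climbs to the right in the right panel, 898 against 1053 TPM.

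Among the caspases, the initiator of the death receptor branch was far more abundant than that of the mitochondrial branch, with no overlap in range. Casp8, encoding that initiator caspase-8 (ENSMUSG00000026029.14, chromosome 1, 58795374 to 58847503, plus strand), was at 151, 149, 145 and 153 TPM in replicates 1 to 4, 58.8% ± 1.94 of the summed TPM of the 5 apoptotic caspase and apoptosome members. Casp9, whose product the apoptosome activates (ENSMUSG00000028914.13, chromosome 4, 141793612 to 141815976, plus strand), was at 11.7, 13.1, 14.9 and 12.7 TPM in replicates 1 to 4. Apaf1, the scaffold of the apoptosome (ENSMUSG00000019979.12, chromosome 10, 90989311 to 91082770, minus strand), was at 39.1, 45.4, 45.8 and 40.6 TPM in replicates 1 to 4, which exceeded Casp9 by 1.70 ± 0.07 log2. Both were lowest in replicate 1 and highest in replicate 3. Casp2, an initiator linked to DNA damage and centrosome number, was at 36.8, 41.2, 41.0 and 45.2 TPM in replicates 1 to 4, and Casp9 minus Casp2 was -1.64 ± 0.15 log2. The effector caspase gene Casp6 averaged 7.93 ± 0.477 TPM (SD, n = 4).

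Members of the death receptor branch differed in level as well. Fadd, the adaptor between receptor and caspase-8, averaged 17.3 ± 0.362 TPM (SD, n = 4), with a range of 16.9 to 17.7 TPM. Cflar, whose protein sits beside caspase-8 and keeps it in check (ENSMUSG00000026031.15, chromosome 1, 58711508 to 58758884, plus strand), was at 36.5, 35.2, 40.1 and 33.2 TPM in replicates 1 to 4. The Cflar gene ends before Casp8 begins on the same strand of chromosome 1, and Cflar minus Casp8 was -2.04 ± 0.15 log2, a ratio of 0.243. That direction depended on gene length. The exons of Cflar span 12669 bases and those of Casp8 2893, and in CPM, Cflar minus Casp8 was 0.08 ± 0.15 log2 (exact permutation p = 0.375), no longer in the same direction in every library.

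The 4 IAP genes among the members were all expressed, at a sum of 189 ± 10.5 TPM. Birc5, a gene of that family outside the member list and named after its value was seen, averaged 121 ± 3.48 TPM. Birc3 (cIAP2), an NF-kappaB target (ENSMUSG00000032000.17, chromosome 9, 7848699 to 7873186, minus strand), was the highest of the 4 members, at 66.6, 74.8, 65.0 and 69.5 TPM in replicates 1 to 4. Birc2 (cIAP1), which lies beside it on chromosome 9 (ENSMUSG00000057367.12, chromosome 9, 7818227 to 7837064, minus strand), was at 48.4, 57.3, 54.1 and 53.6 TPM in replicates 1 to 4. Birc2 minus Birc3 was -0.37 ± 0.08 log2, negative in 4 of 4 libraries, and both genes were highest in replicate 2. In CPM the highest of these 4 members was instead Birc6, with a mean of 309 against 108 for Birc3.

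Xiap, the direct caspase inhibitor of the family (ENSMUSG00000025860.14, chromosome X, 42059679 to 42109656, plus strand), was at 29.6, 33.9, 33.9 and 30.1 TPM in replicates 1 to 4. Birc6, a giant ubiquitin ligase (ENSMUSG00000024073.14, chromosome 17, 74528295 to 74703356, plus strand), was at 31.3, 35.2, 37.7 and 33.6 TPM in replicates 1 to 4, close to Xiap, with a difference of 0.11 ± 0.05 log2 and ranges that overlapped between libraries. That closeness is per base, and in CPM the difference was 1.75 log2, the exons of Birc6 spanning 28830 bases and those of Xiap 9262. Diablo, the mitochondrial protein that displaces IAPs, was at 28.3, 29.1, 28.9 and 28.4 TPM in replicates 1 to 4. Xiap exceeded Diablo by 0.15 ± 0.09 log2, with ranges of 29.6 to 33.9 TPM for Xiap and 28.3 to 29.1 TPM for Diablo.

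The kinases and pore protein of necroptosis were all present. Ripk1, the kinase shared with survival signalling (ENSMUSG00000021408.14, chromosome 13, 34002363 to 34035170, plus strand), was at 18.7, 21.9, 23.6 and 24.1 TPM in replicates 1 to 4. Ripk3, its partner in the necrosome (ENSMUSG00000022221.13, chromosome 14, 55784996 to 55788857, minus strand), was at 40.6, 51.9, 43.0 and 45.6 TPM in replicates 1 to 4. Mlkl, the membrane pore that Ripk3 phosphorylates, was at 20.7, 20.6, 25.4 and 26.0 TPM in replicates 1 to 4. Ripk3 was highest in replicate 2, while Ripk1 and Mlkl were highest in replicate 4. Ripk1 minus Ripk3 was -1.03 ± 0.18 log2 and Ripk3 minus Mlkl 0.97 ± 0.26 log2. In CPM, Ripk1 minus Ripk3 was 0.60 ± 0.18 log2, the opposite direction. The exons of Ripk1 span 6138 bases and those of Ripk3 1964.

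Transcripts of the pyroptosis branch were at middle levels. Casp1, the inflammasome caspase (ENSMUSG00000025888.5, chromosome 9, 5298517 to 5307265, plus strand), was at 40.2, 34.6, 46.2 and 42.4 TPM in replicates 1 to 4. Casp4, the mouse caspase-11 that senses intracellular lipopolysaccharide (ENSMUSG00000033538.13, chromosome 9, 5308828 to 5336783, plus strand), was at 37.7, 33.6, 40.6 and 30.9 TPM in replicates 1 to 4. Gsdmd, the pore protein that both can cleave (ENSMUSG00000022575.4, chromosome 15, 75862339 to 75867404, plus strand), was at 44.6, 56.9, 63.0 and 57.5 TPM in replicates 1 to 4. Replicate 3 was the highest of the 4 for all 3 of these genes, and the lowest was replicate 2 for Casp1, replicate 4 for Casp4 and replicate 1 for Gsdmd. Casp1 minus Casp4 was 0.19 ± 0.19 log2, close in size to its SD and with overlapping ranges, although positive in 4 of 4 libraries, and in CPM it was -1.11 ± 0.19. Casp1 minus Gsdmd was -0.44 ± 0.23 log2. Casp12, which follows Casp4 on the same strand of chromosome 9, had 0 counts in all 4 libraries, which allows up to 0.0214 TPM in the library with the lowest limit and 0.0692 TPM in that with the highest.

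No member was called variable between libraries. A call here means more spread than the trend for genes of like level, estimated from these same 4 libraries. Calling 0 members therefore does not show that their levels were constant. In a fit of each gene's counts to 1 common level (edgeR, trended dispersion, goodness of fit), 34 members could be tested and 0 were called variable at an adjusted p of 0.05, where 66 of 14269 genes, 0.463%, were. A variance test in limma also called 0 members, with 0.189% of genes called, and at an unadjusted p of 0.05 it gave 1 member, Casp4, with 4.54% of genes. In the edgeR fit 0 members were likewise called with DESeq2 size factors (0.456% of genes called), with no filter on low counts (0.311%), and without replicate 1 (0.27%), 2 (0.325%), 3 (0.452%) or 4 (0.339%). At an unadjusted p of 0.05 the edgeR fit gave 2 members, against 812 genes or 5.69%, a share close to that of all genes. These 2 were Bmf, a BH3-only gene (adjusted p = 0.747), and Casp4 (adjusted p = 0.760), both p-values from edgeR's goodness of fit.

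Bmf had 11.1, 7.47, 10.2 and 12.5 CPM after TMM scaling in replicates 1 to 4, with replicate 2 low, and Casp4 had 45.5, 38.2, 45.9 and 35.5 CPM, with replicates 2 and 4 low. At the unadjusted threshold 0 members passed without replicate 2 and 0 without replicate 4, with 4.62% and 5.4% of genes passing, while Bmf and Casp4 passed without replicate 1 and without replicate 3, with 4.71% and 4.78% of genes. The ratio of the highest to the lowest library ran from 1.05 for Diablo and Fadd to 1.67 for Bmf, also on the TMM-scaled CPM. The SD of log2 CPM had a median of 0.0934 over the 34 members and of 0.119 over all genes tested. At like expression level, 11 of the 34 members had a smaller SD than the median gene.

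**Figure D4:**
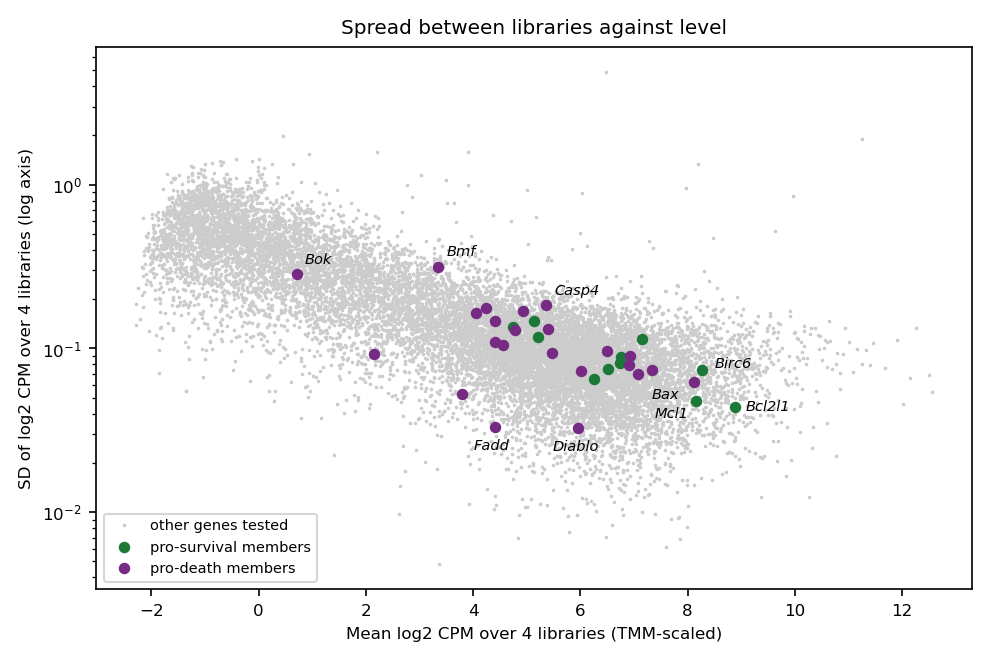
SD of log2 CPM over the 4 libraries, on a log axis, against mean log2 CPM after TMM scaling, for the 14269 genes tested in grey and the 34 members tested in green (pro-survival) or purple (pro-death). Bmf and Casp4 lie near the upper edge of the cloud at their level, and Fadd and Diablo near its lower edge.

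The shallowest library gave the lowest TPM of many members. Replicate 1 was the lowest of the 4 for 18 of the 34 members at 1 TPM or more, 52.9%, while it was the lowest for 52.1% of the 10868 protein-coding genes at that level, a share close to that of the members. Gsdmd, Ripk1 and Bcl2l2 were among these 18, and were lowest in replicate 1 in TMM-scaled CPM as well. For other genes, the highest and lowest libraries named with TPM values can differ in TMM-scaled CPM. There, Bcl2l1 and Mcl1 were highest in replicate 1, at 489 and 296, and Apaf1 was lowest in replicate 4, at 114.

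Genes that overlap are a second limit of the counting, and Bcl2a1b is among those it touches. A read pair that lies on exons of 2 genes on the same strand was given to neither, and 4 members share 10% or more of their exon bases in this way. Bcl2a1b shares 49.1% with Gm29094, Ripk1 34.3% with the pseudogene Gm17084, Bcl2l2 13.3% with Gm20521 and Bax 12.2% with Gm45808. The partner genes had between 0 and 19 counts in any library. An alternative added after the data were seen divided the same counts by unshared bases only. It gave 206 ± 13.5 TPM for Bcl2a1b, 33.6 ± 3.75 for Ripk1, 30.7 ± 3.19 for Bcl2l2 and 641 ± 17.2 for Bax (SD, n = 4 each). Levels of all other members were left as they were. All 20 pairs kept their direction in 4 of 4 libraries on that scale, while the size of some changed. Ripk1 minus Ripk3 shrank to -0.43 ± 0.18 log2, Bcl2l1 minus Bcl2l2 was 3.43 ± 0.15 log2 and Bax minus Bak1 1.57 ± 0.08 log2. The order of the Bcl2a1 copies was not kept, since Bcl2a1b, at 193 to 222 TPM per unshared base, then stood above both Bcl2a1d and Casp8.

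**Figure D5:**
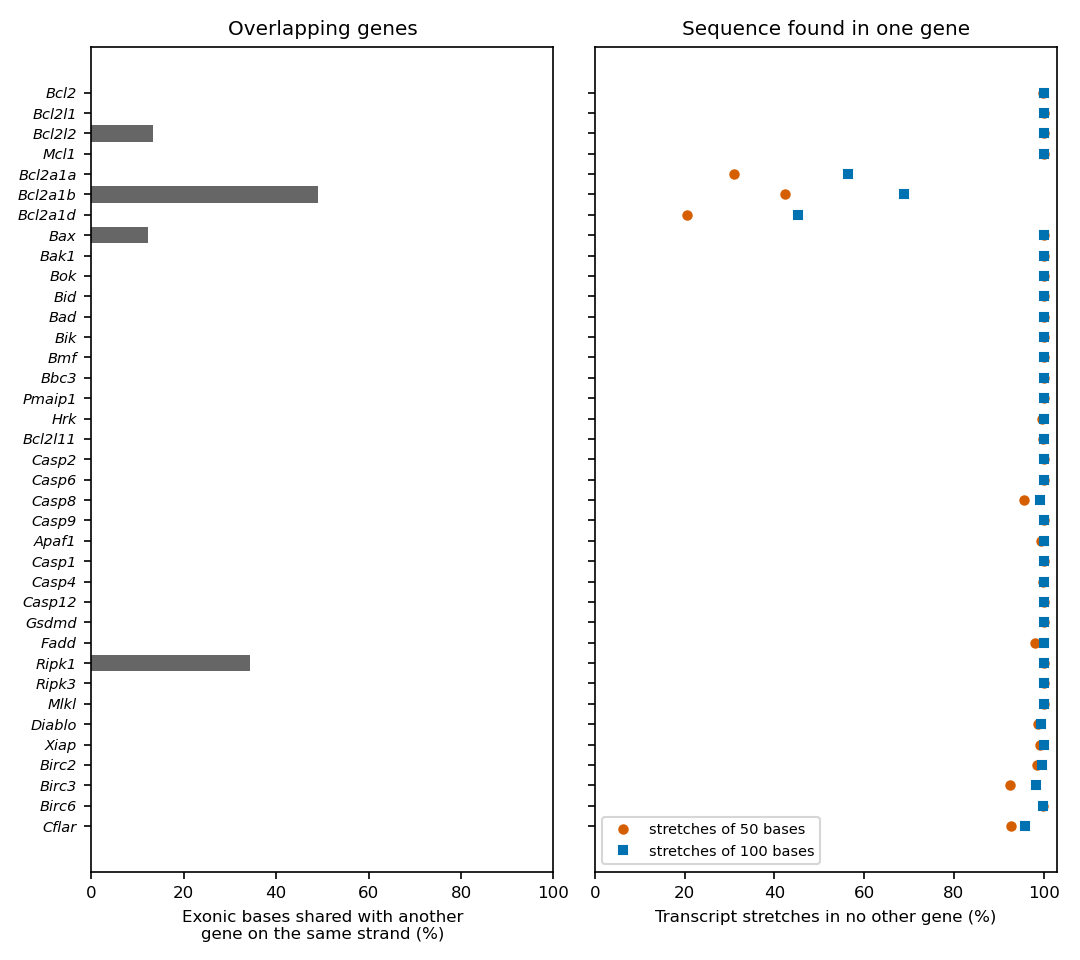
Left, percent of each member's exon bases shared with another gene on the same strand. Right, percent of 50-base and 100-base stretches of its transcripts found in no other gene's transcripts, genes overlapping the member left out. The bars reach 49.1% for Bcl2a1b and 34.3% for Ripk1, and the 3 Bcl2a1 copies stand apart on the right at 20.5% to 68.9%, while Cflar, next lowest with 100 bases, is at 95.9%.

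Apart from the Bcl2a1 copies, sequence shared with genes that do not overlap the member was slight. With stretches of 100 bases, 5 members were under 99% unshared, namely these 3 copies, Cflar at 95.9% and Birc3 at 98.2%. With stretches of 50 bases, 9 members were under 99%, among them Birc3 at 92.4%, Cflar at 92.6% and Casp8 at 95.6%. Transcripts of genes that do not overlap the member were searched, and the genome outside transcripts was not.

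Among 42 other genes of these pathways, 35 were at 1 TPM or more in all 4 libraries. The 4 most abundant were Bag1, a co-chaperone that binds Bcl2, at 397 ± 28.2 TPM, Vdac1, a channel of the outer mitochondrial membrane, at 335 ± 10.96, Trp53, encoding p53, at 227 ± 18.8, and Vdac2, a related channel that Bak1 binds, at 184 ± 6.95 (SD, n = 4 each). At 0 counts in every library were 3 of the 42, the inflammasome sensor gene Nlrp3, the cytokine gene Il1b and Casp14, named after their values were seen. Of the 42, 37 could be tested for spread between libraries and 0 were called at an adjusted p of 0.05 in the edgeR fit, as in the limma test, while edgeR with 1 common dispersion called 2, with 6.69% of all genes called. At an unadjusted p of 0.05 the edgeR fit with trended dispersion gave 3 of the 37, Cycs, Zbp1 and Bnip3, again named after their values were seen, beside 5.69% of all genes.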

How the data were processed

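RNA was sequenced in 4 libraries of T cells. The authors deposited whole-number counts of read pairs for each gene, made with featureCounts 1.4.6-p4 on exons of GENCODE M13 for mm10, per the file headers. Both ends of a pair had to be mapped and strand setting 2 (reverse) was used, per the file headers. The options for multiply mapped reads and for reads on several genes were not switched on. Alignment names in the headers contain star2, and the aligner's version was not given in the sources used here. Each exonic length was deposited beside its count by the authors. Library depth was 34978213, 118937382, 42274502 and 95356041 counts in replicates 1 to 4. A count of 0 allows up to 3 counts at 95% confidence, a limit for counting error alone, because reads carry no molecular identifiers.

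TPM was computed here from count and length, and log2 differences between genes used TPM + 0.1. Symbols came from GENCODE M21, which matched 50376 (99.6%) of the gene identifiers. Pairs of members were tested with an exact sign-flip permutation test, adjusted (Benjamini-Hochberg) over 20 pairs. Spread between libraries was tested over all genes kept by filterByExpr with edgeR 4.0.16 (TMM, trended dispersion), adjusted over 14269 genes, after a check on simulated data. Alternatives used CPM, another pseudocount of 1, other lists and summaries, DESeq2 1.42.0 size factors, limma 3.58.1, another filter or dispersion, and each replicate left out. Sequences are those of GENCODE M21 transcripts and the RefSeq promoter table. The 37 members, their roles, the pairs and the 42 other pathway genes were chosen with earlier results of these data known. Genes given with a value in every library are those of the pairs, those sharing 10% or more of their exon bases, and the Bcl2a1 copies. Software was Python 3.11.15 and R 4.3.3.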

Additional observations from a re-analysis of the deposited data

Results flagged for a closer look

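In 62 values examined over the 4 libraries, 2 had 1 library far from the other 3, where chance at 1 in 20 would give 3.1. The level of Bcl2l2 was 22.5 TPM in replicate 1, against 27.3 to 28.3 TPM in the other replicates. Replicate 1 was the shallowest library and the lowest for 52.1% of the expressed protein-coding genes. The level of Hrk was 0.0239 TPM in replicate 4, from 4 counts, against 0 in the other replicates, and 4 counts lie close to the 3 that a count of 0 allows.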

How the results depend on the processing

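No paired analysis was possible because there is 1 group and so no second group to pair its samples with. With CPM in place of TPM, the median level of the 37 members, taken in each library and averaged, was 40.4 (37.1 TPM), pro-survival minus pro-death log2 medians 1.83 (0.49 in TPM), the summed difference within the Bcl2 family reversed to 0.40 (-0.23 in TPM), and 19 of 20 pairs had 1 direction in every library, while 3 pairs had a reversed mean: Cflar minus Casp8 at 0.085, Ripk1 minus Ripk3 at 0.60 and Casp1 minus Casp4 at -1.11. The median difference was 0.26 without the Bcl2a1 copies, 0.62 without Ripk1 and Cflar, 0.98 with list means and 1.62 within the Bcl2 family. Per unshared base, likewise added after seeing the data, it was 0.37. The summed difference was -0.67 without the Bcl2a1 copies, -0.17 per unshared base (added after seeing the data), and reversed to 0.20 against effectors only and 1.73 against BH3-only members only. Leaving out each replicate gave 0.45 to 0.55 for the median difference, -0.25 to -0.21 for the summed difference, 36.1 to 37.7 TPM for the median level and 0 members called variable, with 41 to 68 genes called in all. Members called variable were 0 under every alternative run, also with 1 common dispersion (955 genes called), and 32 members reached 5 TPM. The mean of Bcl2a1a was 0.0387 TPM without replicate 3 (0.0997 with it), and that of Hrk 0 without replicate 4. The smallest exact permutation p is 0.125 with 4 libraries and 0.25 with 3. Bok, at 50 to 197 counts, is the expressed member that depth limits most.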
